A study of Mus musculus with 7 samples.

Results

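Liver of the mouse in 2 preparations was compared by ChIP-exo 5.0 for CTCF: a library from the liver organ, whose label gives no cell number, and a library labelled as 2,700,000 liver cells. The members were all listed peaks on the 19 placed autosomes, leaving out the mitochondrial genome, unplaced sequences and 33 bins of 10 kb that held at least 20 peaks in both libraries. This left 174465 of 187731 organ peaks and 1332138 of 1392773 cell peaks, 1506603 of the 2603994 peaks in the 7 libraries of the series. Both libraries came from wildtype mice, and the methods give adult male mice of 16 weeks and 100 mg of tissue for each organ. An antibody against CTCF is given in the labels of each library, although their extraction protocol names IgG. According to the methods, the numbers of liver cells were estimated from the wet weight of tissue, so 2,700,000 is an estimate, and nothing in the sources names a sort or a culture of hepatocytes. The crosslinking is given as 1% formaldehyde in the methods and as 0.3% in the labels. There was 1 library a side. Differences between them therefore have no check by replicates and carry no p-value, and the preparation, the animal and the library cannot be told apart. Intervals in brackets are 95% intervals that cover counting error only.

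CTCF is a zinc finger protein that binds a long, asymmetric DNA motif at insulators, at the borders of chromatin domains and at many promoters, where it halts the cohesin complex as it extrudes loops. Most of its strong sites are occupied in many cell types, and a minority differ between tissues. In ChIP-exo, lambda exonuclease trims each immunoprecipitated strand until it meets the crosslinked protein, so that a bound site leaves a stop on the forward strand upstream of the motif and a stop on the reverse strand downstream of it.

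The authors deposited strand-specific peaks of 21 bp, each with its count of tags, where a tag is the position of an exonuclease stop. A peak had to hold at least 2 tags to be listed. The organ library held 527038 listed tags and the library of 2,700,000 cells 6592538. Of these, 72.2% of the organ tags and 88.0% of the cell tags lay in the kept peaks. Among kept peaks, 87.8% held exactly 2 tags in the organ against 58.6% in the cells, and 671 organ peaks (0.385%) held at least 5 tags against 249740 cell peaks (18.7%). All tags of a peak shared 1 position in 79.7% of the organ peaks and in 33.6% of the cell peaks. Because PCR duplicates were defined by identical reads of both ends, such a peak can hold distinct fragments that stop at the same base. Its share was also 79.6% in the library of 270,000 liver cells, which had 640635 listed tags and serves below as a liver library of nearly the organ's depth. A level is given in CPM, the count of tags per 1,000,000 tags listed in the library, so that the smallest listed organ peak, 2 tags, stands at 3.79 CPM.

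The sequences of 6 promoters show the core motif at promoters that held tags in the cells. They are RefSeq promoters on GRCm38.p6, the assembly that mm10, the build of the files, shares coordinates with, and each holds the core motif CCNNNAGNNGGC exactly 1 time. Among promoters with 1 match, the first 4 were highest by the lower of their organ and cell levels, and the last 2 had the largest excess of the cell level over the organ level. The capitals mark the core motif, and each sequence is written 5′ to 3′ along the strand that carries it.
Sh3gl1, chr17:56036690-56036781, minus strand: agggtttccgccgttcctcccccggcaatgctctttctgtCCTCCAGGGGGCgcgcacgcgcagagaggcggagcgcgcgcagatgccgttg
Gm13404, chr2:33973549-33973640, plus strand: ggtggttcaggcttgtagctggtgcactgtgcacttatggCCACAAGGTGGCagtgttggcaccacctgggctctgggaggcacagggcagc
Nipsnap2, chr5:129724923-129725014, minus strand: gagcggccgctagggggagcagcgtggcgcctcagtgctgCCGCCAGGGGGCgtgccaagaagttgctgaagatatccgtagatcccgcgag
Man2b2, chr5:36830611-36830702, minus strand: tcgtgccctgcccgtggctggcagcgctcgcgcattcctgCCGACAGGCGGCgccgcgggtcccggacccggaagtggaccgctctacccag
Gm17197, chr19:56356576-56356667, plus strand: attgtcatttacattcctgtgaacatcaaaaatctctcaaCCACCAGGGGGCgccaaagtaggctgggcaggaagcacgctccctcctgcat
Gm32630, chr7:16932120-16932211, plus strand: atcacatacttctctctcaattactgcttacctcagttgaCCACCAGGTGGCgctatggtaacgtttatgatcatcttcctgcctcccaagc

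The promoter of Sh3gl1, which encodes an endophilin of the membrane-bending kind, held 13 tags in the organ and 448 in the cells. Its strongest peak on the strand opposite the motif lay 16 bp downstream of the motif centre in both libraries, with 5 organ tags and 205 cell tags. On the motif strand the libraries differed. The strongest organ peak lay 3 bp downstream of the centre, with 3 tags, and the strongest cell peak at -77 bp, with 34 tags. Over the whole promoter, brain, lung and kidney held 69, 58 and 35 tags, and the 270,000 cells 45. Each of these libraries thus held tags at this promoter.

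The promoter of Gm13404 held 11 organ tags and 214 cell tags. Its strongest organ stops lay 30 bp upstream on the motif strand and 25 bp downstream on the opposite strand, whereas the strongest cell stops lay at 79 bp upstream (offset -79) and 16 bp downstream. The promoter of Nipsnap2 held 11 organ tags and 180 cell tags, and that of Man2b2, a lysosomal alpha-mannosidase, 9 and 165. At Man2b2 the strongest motif-strand stops lay at -93 bp in the organ and -95 bp in the cells, outside the sequence printed. The strongest opposite-strand cell stop lay at -55 bp, also upstream and outside it, and the organ had none listed nearby. The strongest stops at Man2b2 thus did not flank the printed motif. The organ and cell levels at these 4 promoters differed by 1.31-fold at Nipsnap2 to 2.76-fold at Sh3gl1, each time higher in the cells.

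The last 2 sequences carry the motif as well but had almost no listed organ tags. The promoter of Gm17197 held 477 cell tags, 12 tags in the 270,000 cells and no listed tag in the organ. The promoter of Gm32630 held 464 cell tags, 22 tags in the 270,000 cells and 2 organ tags. In the cells both showed stops on either side of the motif, at -11 and 15 bp at Gm17197 and at -20 and 16 bp at Gm32630, with 128 to 162 tags each.

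Across the 31396 promoters of the table, which run from 250 bases before to 50 bases after each gene start and cover 25748 genes, 8.73% held the motif on either strand. The share was 39.7% [36.3 to 43.2] among the 764 promoters with peaks in both libraries and 14.2% among the 6610 with peaks in the cells alone. It was 6.57% [4.81 to 8.93] among the 563 promoters with peaks in the organ alone, beside 6.24% [5.94 to 6.56] among the 23459 with peaks in neither. Organ-only promoters thus held the motif about as often as promoters with no peak. An organ peak whose tags spread over several positions and which had a cell peak in the same promoter went with the highest of the shares by peak kind, 48.8% of 443 promoters. Organ peaks of 1 position alone with a cell peak gave 27.1% of 321, and spread organ peaks with no cell peak gave 5.05% of 99. Read the other way, organ peaks lay in 12.4% [11.2 to 13.7] of the promoters with the motif and in 3.44% [3.24 to 3.66] of those without it, against 45.2% and 21.4% for cell peaks. A match is a description of the letters and does not show binding.

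The organ stops lay around the motif in the same arrangement as the cell stops. Within 80 bp of 2338 motifs that were the only match of their promoter, the organ had 157 peaks on the motif strand and 158 on the opposite strand, against 1762 and 1889 in the cells. In the organ 75.8% [68.5 to 81.8] of the motif-strand peaks lay upstream of the motif centre and 64.6% [56.8 to 71.6] of the opposite-strand peaks downstream, against 69.4% [67.2 to 71.5] and 65.6% [63.5 to 67.8] in the cells. The median offsets were -26 and 16 bp in the organ and -25 and 16 bp in the cells. The commonest interval of 5 bp on the motif strand was -30 to -26 bp in the organ and -25 to -21 bp in the cells. On the opposite strand it was 25 to 29 bp in the organ, with 17 peaks, and 15 to 19 bp in the cells, with 181.

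**Figure D1:**
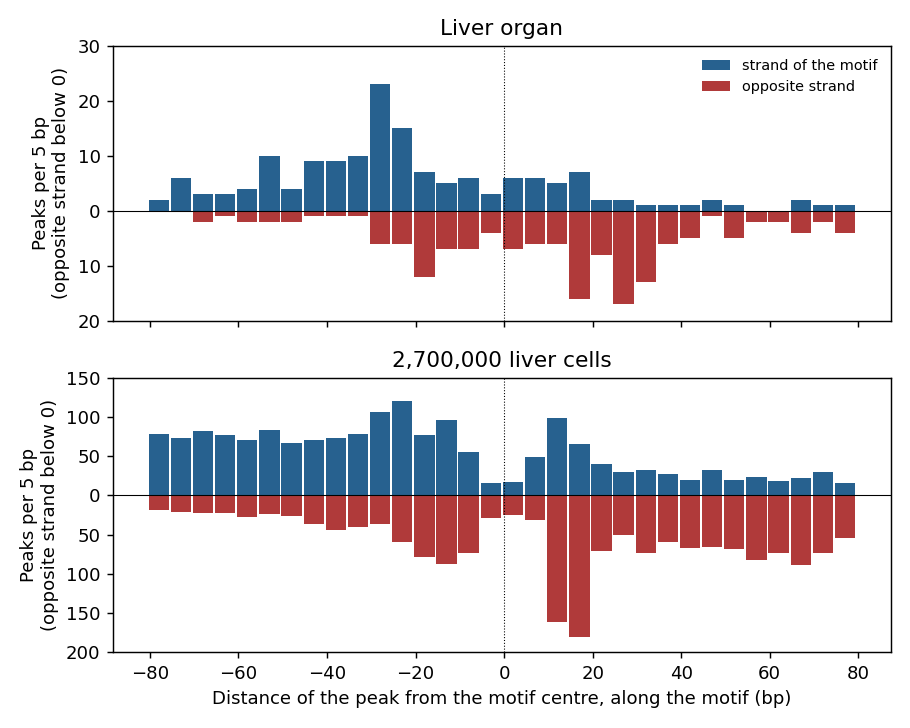
Peaks per 5 bp around the 12-base core motif in promoters, by the distance of the peak from the motif centre in bp along the motif, for the liver organ (top) and 2,700,000 liver cells (bottom). Blue bars above 0 are peaks on the strand of the motif and red bars below 0 those on the opposite strand. In both libraries blue bars are tallest upstream (23 organ peaks at -30 to -26 bp) and red bars downstream (181 cell peaks at 15 to 19 bp).

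Few organ peaks coincided with a peak of the cells, and the share that did was higher where the organ peak held more tags and had them spread over several positions. In number, 7132 of the matching peaks held 2 tags. Of 174465 organ peaks, 9874 (5.66% [5.55 to 5.77]) had a cell peak on the same strand with its centre within 10 bp, against 0.666% after the organ peaks were moved by 5 kb, the local background. For the library of 270,000 cells the share was 17.8% against 0.771%. Among organ peaks of 1 position the share rose only from 2.53% at 2 tags to 4.90% at 5 to 9 tags. Among organ peaks whose tags were spread it rose from 13.9% at 2 tags through 29.4% at 3 and 44.0% at 4 to 61.7% at 5 to 9 tags and 72.3% at 10 tags or more. The organ peaks of at least 10 tags included only 1 with all tags at 1 position. In the other direction, 0.763% of the cell peaks had an organ peak, against 0.0921% after the move.

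**Figure D2:**
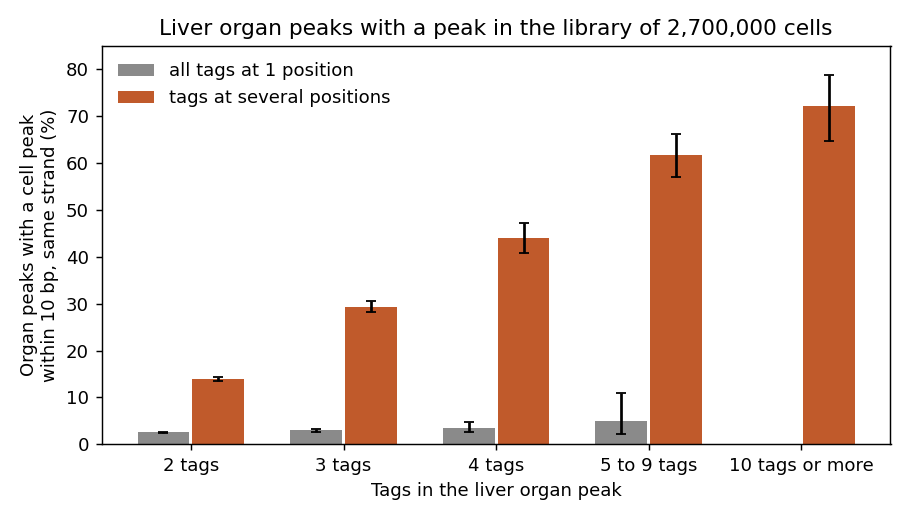
Percent of liver organ peaks with a peak of the 2,700,000 cell library on the same strand within 10 bp, by the number of tags in the organ peak. Grey bars are peaks whose tags all lie at 1 position, orange bars those with tags at several positions, and error bars are 95% Wilson intervals. The grey bars stay below 5% while the orange ones climb from 13.9% to 72.3%, and no grey bar is drawn at 10 tags or more, where there was 1 peak.

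The matching peaks were close but seldom at the same base. Within 50 bp of a cell peak of at least 10 tags lay 8765 organ peaks, and 16.9% of these were within 2 bp, 33.3% within 5 bp and 53.1% within 10 bp. The corresponding shares for the 24767 such peaks of the 270,000 cells were 26.8%, 44.7% and 63.4%.

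A peak pair, that is a forward peak with a reverse peak 10 to 80 bp downstream, is what a protein with stops on both sides leaves. After pairs were merged to lie at least 100 bp apart, the organ gave 1159 pairs and the cells 75990. The median distance between the stops was 45 bp in the organ and 46 bp in the cells, and the commonest distance 47 and 42 bp. Distances spread evenly over the allowed 10 to 80 bp would also have a median of 45 bp, so the close medians do not show a shared spacing. The organ distances were nearly even, with 32.2% of pairs at 35 to 55 bp and 29 of 1159 at the commonest distance. In the cells these values were 41.4% and 2061 of 75990. The 270,000 cells gave 3662 pairs with a median of 49 bp. Organ pairs of at least 10 tags were narrower, with a median of 33 bp.

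Most organ pairs were also occupied in the cells. Of the 1159, 890 (76.8% [74.3 to 79.1]) held cell tags within 100 bp of the pair centre, against 10.8% of the same windows moved by 5 kb, and 771 had a pair in the cells within 50 bp. The share was 69.8% of 827 pairs with 4 to 5 tags and 93.5% of 247 with 6 to 9 tags. Of the 85 with at least 10 tags, 82 held cell tags. A cell pair within 50 bp was less frequent, at 61.4%, 84.2% and 64.7% of these classes in order. That share thus fell again at the strongest organ pairs. The 269 organ pairs without cell tags had a median of 4 tags, the fewest a pair can hold, and 31 of them (11.5%) held tags in brain, lung or kidney. Of the 890 with cell tags, 844 (94.8%) did so. Only 2.97% of the pairs without cell tags lay within 1 kb of a promoter, against 11.5% of those with them.

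Most cell pairs, in contrast, held no organ tag. Of the 75990 cell pairs, called cell sites from here on, 11253 (14.8% [14.6 to 15.1]) held listed organ tags within 100 bp, against 1.83% of the windows moved by 5 kb. If the organ had been the cell library thinned to the organ's kept tags, with the same minimum of 2 tags a peak, 57.5% would have held tags by the binomial distribution. The observed number was thus 0.258 of the expected. For the 270,000 cells 29.2% held tags where 61.7% were expected, a ratio of 0.474. Brain, lung and kidney, at their own depths, held tags at 37.8%, 29.4% and 26.1% of the same sites. Cell sites took up 6.69% of the listed organ tags, 15.9% of those of the 270,000 cells and 54.2% of those of the 2,700,000 cells, where the sites were chosen. The same windows moved by 5 kb took up 0.554%, 0.706% and 1.15%.

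Strong cell sites were occupied more often, at every level well below the expectation. Cell sites were ordered by their tags and cut into 10 groups of 7599. In group 1, with a median of 95 cell tags, 37.7% [36.6 to 38.7] held organ tags where 99.99% were expected, and 76.9% held tags of the 270,000 cells. In group 5, with a median of 12 cell tags, the organ share was 13.2% where 62.3% was expected. In group 10, with 4 cell tags, it was 3.80% [3.40 to 4.26], and 2.11% of the moved windows held organ tags.

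**Figure D3:**
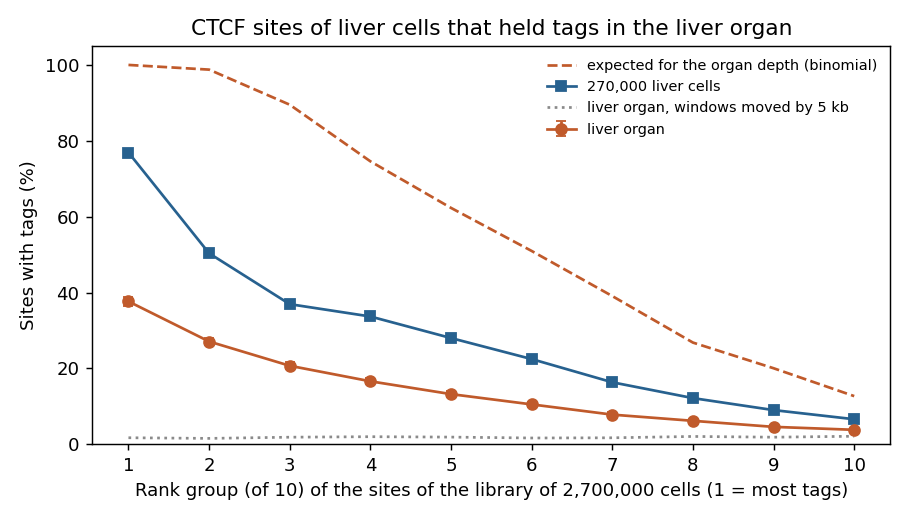
Percent of cell sites with tags, by rank group of the sites of the 2,700,000 cell library (group 1 has the most tags, 7599 sites a group). The orange line with 95% Wilson intervals is the liver organ, the dotted line the same windows moved by 5 kb, the dashed line the share expected for the cell library thinned to the organ's tags and the blue line the library of 270,000 cells. The organ falls from 37.7% to 3.80%, below the dashed line in each group.

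Cell sites near promoters held organ tags more often than sites of the same rank group farther away. In group 1, 51.4% of the 395 sites within 1 kb of a promoter held organ tags, against 36.9% of the sites farther away, and in group 2 the shares were 46.1% of 466 and 25.8%. In group 4 they were 31.9% and 15.5%, and in group 10 5.32% and 3.69%. The share near a promoter was higher in each of the 10 groups. Moved windows were not counted for the 2 classes separately, so a higher background of organ tags near gene starts was not taken off. Sites near promoters of chromosome 18, which the promoter table lacks, counted as farther away.

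Strong cell sites with and without organ tags had nearly the same level in the cells but not in the other organs. The 2861 group 1 sites with organ tags had a median of 99 cell tags, and the 4738 without had 93. Of those with organ tags, 89.4% held tags in brain, 76.8% in lung and 69.2% in kidney, against 68.6%, 55.4% and 47.8% of those without. All 3 other organs held tags at 54.3% of the first and 28.3% of the second, and none of them at 3.84% and 16.9%. The 270,000 cells held tags at 86.3% and 71.2%.

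Of the organ tags outside the cell sites, most lay far from any pair. In the organ 84.4% of the kept tags lay over 1 kb from a pair of either library, against 70.5% for the 270,000 cells and 27.4% for the 2,700,000 cells, which supplied nearly all the pairs. These organ tags came in peaks of 2.12 tags on average, and 83.6% of their peaks had 1 position, against 54.4% of the organ peaks nearer to a pair. Annotated genes held 52.2% of the kept organ tags and 53.7% of the cell tags, and the 1 kb around promoters held 3.50% and 5.45%.

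Tags of both libraries gathered just upstream of gene starts. Summed over 31365 starts, both were highest in the window 100 bp upstream, where the organ reached 2780 CPM and the cells 7420. That was 2.36 times the level at 2000 bp on either side in the organ and 3.95 times in the cells. The peak rested on 1465 organ tags and 48915 cell tags. The organ profile also had an isolated rise 800 bp upstream, to 1954 CPM on 1030 tags, above its 1854 CPM at 200 bp upstream. Beside it the organ stood at 1288 CPM at 900 bp and 1264 at 700 bp upstream. The cells showed no such rise, with 2386 CPM at 800 bp upstream.

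**Figure D4:**
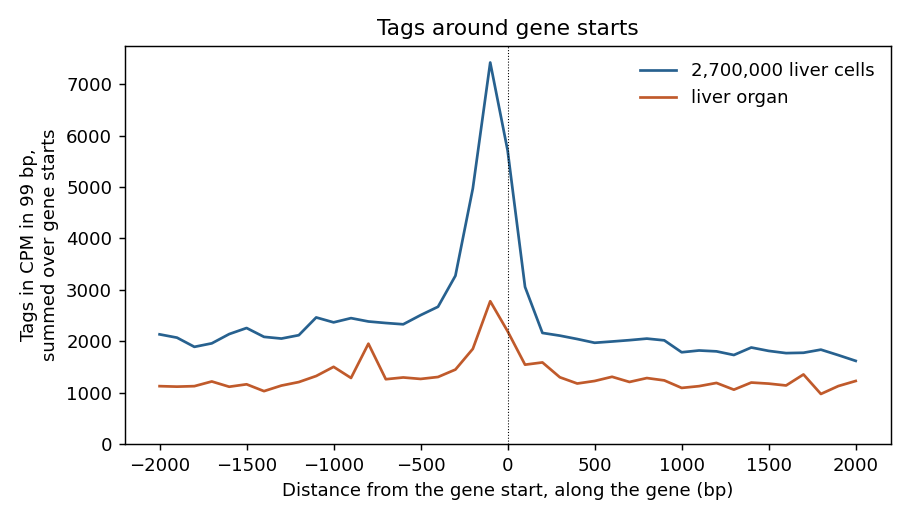
Tags in CPM in windows of 99 bp, summed over 31365 gene starts, by distance from the start in bp along the gene. The blue line is the library of 2,700,000 liver cells and the orange line the liver organ. Both peak at -100 bp, at 7420 and 2780 CPM. The organ line also rises to 1954 CPM at -800 bp.

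Site levels were compared at the union of both libraries' pairs, in windows of 200 bp, where the mean of the 2 levels was at least 20 CPM. Of 1756 such sites, 71 (4.04%) were at least 2-fold higher in the organ and 1573 (89.6%) at least 2-fold higher in the cells, and 112 lay within 2-fold. The median level was 3.79 CPM in the organ and 42.8 in the cells. At 607 sites the organ had no listed tag. The comparison leans to the cells by the way sites enter it, since 1693 of the sites reached 20 CPM in the cells and 150 in the organ, counts that overlap. Scaled instead to a median ratio of 1 over these sites, 256 were higher in the organ and 838 in the cells.

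**Figure D5:**
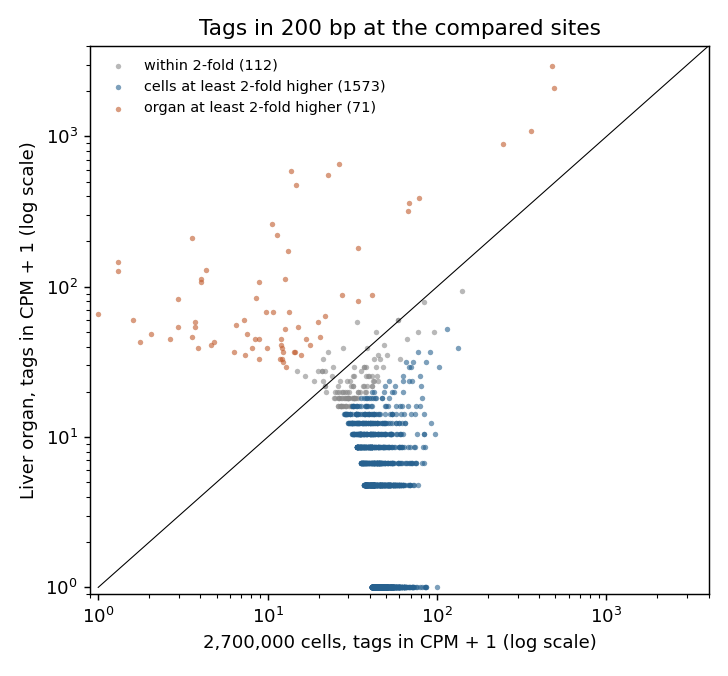
Tags in CPM plus 1 in 200 bp at the 1756 compared sites, with the library of 2,700,000 liver cells on the x axis and the liver organ on the y axis, both on a log scale. Orange points (71) were at least 2-fold higher in the organ, blue points (1573) at least 2-fold higher in the cells and grey points (112) within 2-fold. The line marks equal levels, and the 607 sites with no listed organ tag lie along the bottom.

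The 71 sites higher in the organ took up 1.33% of all organ tags and 0.204% of the cell tags, and they fell into 58 places at least 10 kb apart. Their median level was 56.9 CPM in the organ, 10.8 in the 2,700,000 cells, 17.2 in the 270,000 cells, 19.4 in brain, 15.9 in lung and 20.8 in kidney. Since the sites were selected for a high organ level and a low cell level, the values of the other libraries between them are a description only. At 63 of the 71 the organ had a peak with tags at several positions.

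Sites with a higher ratio of organ to cells more often held tags in all the other organs and had fewer in the 270,000 cells. The ratio did not use these libraries, but the groups were cut on the organ and cell values. The trend across the groups is thus a description only. The 22 sites with a ratio of 2 to 4 had medians of 22 tags in the organ, 95 in the 2,700,000 cells and 15 in the 270,000 cells, and 10 of the 22 held tags in all 3 other organs. The 20 sites with a ratio of 4 to 10 had 33, 61.5 and 11.5, and 15 of them held tags in all 3. The 29 sites with a ratio of at least 10 had medians of 44 tags in the liver organ, 30 in brain, 21 in lung and 51 in kidney, but 20 in the 2,700,000 cells and 3 in the 270,000 cells. All 3 other organs held tags at 27 of these 29.

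The 10 compared sites with the highest mean level were all higher in the organ, and 4 of them lay at 2 places. Windows at chr6:103649113-103649313 and chr6:103648984-103649184, in the neural cell adhesion gene Chl1, held 1558 and 469 organ tags and 3152 and 1602 cell tags. The first had a level 6.18-fold [5.82 to 6.57] higher in the organ. It held 701, 301 and 1481 tags in brain, lung and kidney and 801 in the 270,000 cells, so that it was a strong pile-up in every one of these libraries. The other place, 2 overlapping windows near the start of the assembled part of chromosome 12, at chr12:3109834-3110034 and chr12:3109946-3110146, held 1113 and 569 organ tags and 3229 and 2370 cell tags.

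At 4 more of the 10 the organ exceeded the cells over 20-fold. The window chr10:121763159-121763359 held 345 tags in the organ and 167 in the 2,700,000 cells, which is 25.8-fold [21.4 to 31.3] higher in level. The window chr7:90441888-90442088, 746 bp from Crebzf, held 311 and 84, and chr14:45812727-45812927 held 290 and 143. The last, chr5:104072236-104072436 in Gm17660, held 250 and 90. Brain, lung and kidney held 249 to 294, 265 to 293 and 388 to 481 tags at these 4, and the 270,000 cells 8 to 27. In tags not scaled to depth, both cell libraries thus stood below each of the 4 organ libraries, and kidney was the highest. In CPM the liver organ was the highest, at 474 to 655, followed by lung at 383 to 424, brain at 241 to 285 and kidney at 237 to 294, against 12.5 to 42.1 in the 270,000 cells and 12.7 to 25.3 in the 2,700,000 cells. The 10 sites were chosen for a high mean level, and these 4 were set apart for an organ level over 20-fold that of the 2,700,000 cells. The order of these 2 libraries is thus set by the choice, and the values of the others are a description. The remaining 2, chr9:24541997-24542197 and chr13:77438853-77439053, held 206 and 189 organ tags and 509 and 444 cell tags, 5.06-fold and 5.32-fold higher in level.

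The next sites were chosen by the highest ratio among sites with a spread organ peak on each strand. At chr15:21656411-21656611, 58090 bp from Cdh12, the organ held 77 tags, brain 62, lung 65 and kidney 99, but the 2,700,000 cells held 2 and the 270,000 cells had none listed. At chr5:130258636-130258836 in Tyw1, a wybutosine synthesis gene, the organ held 111 tags, brain 118, lung 86 and kidney 189, the 2,700,000 cells 17 and the 270,000 cells 2. The organs also stood above the cells at chr16:93789241-93789441 in Dop1b, where the liver organ held 43 tags, brain 34, lung 34, kidney 52, the 2,700,000 cells 13 and the 270,000 cells 4. At these 3 sites all 4 organs lay above both cell libraries in tags not scaled to depth. In CPM the liver organ was the highest at each, with 146, 211 and 81.6. All sites chosen by this rule have a high liver organ level beside the 2,700,000 cells, so that part of the order follows from the choice.

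A pair of these sites stood apart from the others. At chr12:28802679-28802879 in Eipr1, which encodes a partner of the EARP and GARP tethering complexes, the liver organ held 34 tags, kidney 2, and no listed tag was found in brain, lung or either cell library. At chr15:66152359-66152559 in the potassium channel gene Kcnq3, the liver organ held 67 tags, kidney 21, brain 13, lung 2, the 2,700,000 cells 2 and the 270,000 cells none listed. The liver organ was thus the highest library at both. The other 5 sites lay in or near Gm33172, Ppp1r9a, Efna5, 4930559C10Rik and Gm30305. They held 25 to 138 organ tags and 4 to 63 cell tags, at ratios of 26.9 to 96.9. Brain held 17 to 107 tags there, lung 10 to 86 and kidney 30 to 201. Lung did not stand above the 2,700,000 cells at Efna5, with 20 tags each, or at Gm30305, with 10 against 13.

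The 10 compared sites chosen for the lowest ratio, among those with spread cell peaks on both strands, held no listed organ tag and 472 to 653 cell tags. The strongest, chr4:145851499-145851699, held 653 cell tags and 19 tags in the 270,000 cells, 2 in lung and none listed in brain or kidney. It overlapped another of the 10, chr4:145851599-145851799, with 487 cell tags. The windows chr4:146483584-146483784, 14244 bp from Zfp992, and chr4:147201979-147202179 in Zfp978, both zinc finger genes, held 562 and 513 cell tags, 20 and 12 tags in the 270,000 cells, and 4 or fewer in each other organ. These 4 windows on chromosome 4 were thus strong in the cells and close to the listing limit in every organ. At 5 more, in or near Slc12a3, Trappc9, Kirrel, Zfp607b and 0610040J01Rik, the highest of brain, lung and kidney held 15 to 40 tags. In Slc12a3, the kidney sodium-chloride cotransporter gene, the window chr8:94343328-94343528 held 557 cell tags, 15 in brain, 11 in lung and 9 in kidney.

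Of 22 genes known from textbooks for CTCF-dependent insulation, 19 had a site of either library within 20 kb, and the strongest of these held organ tags at 10 of the 19, tags of the 270,000 cells at 12, and tags in brain, lung and kidney at 14, 9 and 13. Over all cell sites the organ share was 14.8%, and in group 1 37.7%. None of these strongest sites held over 6 organ tags, beside a median of 2 organ tags over all compared sites. Near Shh, the ligand gene whose domain is bounded by CTCF sites, the window chr5:28451273-28451473 held 6 organ tags and 232 cell tags, 3.09-fold [1.40 to 8.51] lower in level. Near Bcl6, a repressor gene, chr16:23991222-23991422 held 6 and 223. Both windows had spread organ peaks, and both held tags in brain and kidney.

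The other strongest sites with organ tags rested on 2 to 4 of them. The window near App, the amyloid precursor gene, held 4 organ and 132 cell tags, that near Ihh 4 and 114, and that near Epha4 3 and 187. Near Hoxa9 the organ held 3 tags and the cells 72, near Myc 2 and 76, near the alpha globin gene Hba-a1 2 and 124, and in Igf2r 2 and 19. Counts of this size allow ratios that reach past equality at Myc, Hoxa9, Ihh and Igf2r, where the interval of organ over cells was 0.0392 to 1.23 at Myc and 0.149 to 5.46 at Igf2r.

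No listed organ tag was found near Igf2, whose site held 91 cell tags, Hbb-bt with 189, Hoxd9 with 192, Lmbr1 with 176, Sox9 with 148, Peg3 with 107 and Meg3 with 93. The site near H19, the imprinted RNA gene whose control region is bound by CTCF on the maternal allele, held only 7 cell tags, and that in Pax3 only 6. Both had no listed tag in any other library compared here. Kcnj2 and Kcnq1ot1 had no pair within 20 kb, and Tcrb was not found in the annotation.

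Tags over whole genes, with 1 kb on each side, were compared for the 7135 of 33069 autosomal genes whose mean level reached 20 CPM. Of these, 709 (9.94%) were at least 2-fold higher in the organ and 3001 (42.1%) at least 2-fold higher in the cells. The genes higher in the cells were short and dense in cell pairs, with a median length of 29.2 kb and 12.8 cell pairs per 100 kb. Those higher in the organ were long and had a lower density of cell pairs, with a median of 118 kb and 1.13 cell pairs per 100 kb. Their median count was still 2 cell pairs a gene, against 4 in the genes higher in the cells. Genes within 2-fold lay between, at 101 kb and 4.07 pairs per 100 kb. The contrast in pairs follows in part from the design, because the pairs counted came from the same cell tags that enter the call. The level minimum can also favour long genes where cell pairs are few. With only the tags over 1 kb away from any pair, 2346 genes were higher in the organ and none in the cells. This alternative was chosen after the data were seen, and its outcome is largely set by its construction, because it keeps 84.4% of the organ tags and 27.4% of the cell tags while the levels stay scaled to the whole library. The split also moved with the scaling, since the median gene stood at -0.68 on the log2 scale, organ over cells. Scaled to a median of 0, 1575 genes were higher in the organ and 1824 in the cells, and scaled to the kept autosomal tags 1480 and 2839.

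The labelled tissue cannot be checked by expression in ChIP data, and tags over genes of liver cell types are given here instead. Of 25 genes for hepatocyte products, 7 were compared, 4 of them higher in the cells, 3 within 2-fold and none higher in the organ, where 42.1% and 9.94% of all compared genes were higher in the cells and in the organ. Under both other scalings 3 of these same 7 were higher in the cells, without Tat. The level minimum was not applied anew for the list. Their median was -1.02 on the log2 scale, organ over cells, beside -0.68 over all compared genes. Alb, the albumin gene, had no listed organ tag and 85 cell tags, and Apoa1, the main apolipoprotein of high-density lipoprotein, none and 82. Both fell short of the minimum level. Ass1, the argininosuccinate synthase of the urea cycle, held 27 organ and 1185 cell tags, a level 3.51-fold higher in the cells, with 15 cell pairs. Apob held 9 and 615, Apoa2 4 and 322, and Tat, the tyrosine aminotransferase gene, 7 and 177. Cps1, the first enzyme of the urea cycle, held 30 and 390, which are equal levels within 1.04-fold, and Trf, the transferrin gene, 9 and 196.

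Of 13 genes for hepatocyte transcription factors, 6 were compared, 1 higher in the organ, 2 higher in the cells and 3 within 2-fold, with a median of -0.62 on the log2 scale that turned to 0.06 when the median gene was set to 0. Hnf4a, a nuclear receptor of hepatocyte identity, held 28 organ and 379 cell tags, levels of 53.1 and 57.5 CPM. Prox1, a homeobox gene of the liver bud, had a level 5.06-fold higher in the organ, with 19 organ and 47 cell tags and no pair in either library. Onecut1, with 5 cell pairs, was 5.84-fold higher in the cells, with 6 and 438 tags, and Nr5a2 2.41-fold higher, with 10 and 302, a call lost under both other scalings.

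Genes of other liver cell types were seldom compared. In the Kupffer cell list, 1 of the 7 genes found was, Adgre1, the F4/80 gene, at 18 organ and 86 cell tags, 2.62-fold higher in the organ. Clec4f, the Kupffer lectin gene, held 6 and 15 tags. In sinusoidal endothelium 2 of 7 were compared: Stab2, a scavenger receptor gene, was within 2-fold at 47 and 668 tags, and Clec4g was 3.37-fold higher in the cells at 5 and 211. In stellate cells 4 of 7 were compared, among which Hhip was 6.85-fold higher in the organ at 23 and 42 tags, Col1a1 5.32-fold and Pdgfrb 2.23-fold higher in the cells, and Reln within 2-fold. The call of Pdgfrb was lost under both other scalings. Of the 6 bile duct genes Cftr was compared, 2.03-fold higher in the organ at 18 and 111 tags, and of the 8 blood genes Ptprc, within 2-fold at 22 and 168 and 2-fold or more higher in the organ if the median gene was set to 0. The summed level of each list was 91.1 CPM in the organ and 41.3 in the cells for Kupffer cells, 165 and 157 for endothelium, 218 and 249 for stellate cells, 53.1 and 25.8 for bile duct and 62.6 and 29.4 for blood, beside 283 and 628 for hepatocyte products, 249 and 344 for hepatocyte transcription factors, 37.9 and 91.8 for widely expressed genes, 383 and 524 for the textbook CTCF loci and 249 and 306 for CTCF and cohesin. The part that cell types play in the difference was not tested.

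Genes of CTCF itself and of cohesin served as a list of long genes used in all cells. Of 10, 5 were compared, 4 of them within 2-fold, and the list's median of -0.46 on the log2 scale turned to 0.22 when the median gene was set to 0. Nipbl, the cohesin loader gene, held 19 organ and 493 cell tags with 10 cell pairs, 2.07-fold higher in the cells, a call lost under both other scalings. Stag1 held 40 and 459, levels of 75.9 and 69.6 CPM, and Smc3 12 and 237. Ctcf held 12 and 88, and Rad21, with no pair in either library, 12 and 38, both below the minimum level. Of 10 widely expressed genes, which are short, none was compared. Tubb5 held 2 organ and 209 cell tags, Rplp0 2 and 146, Gapdh none listed and 119, and Actb 3 and 47. Of the 22 textbook CTCF loci, 8 genes were compared, with 2 higher in the organ (Epha4 at 2.23-fold and Pax3 at 2.50-fold), 3 higher in the cells (Peg3 at 10.9-fold, Bcl6 at 3.49-fold and Meg3 at 2.88-fold) and 3 within 2-fold.

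On the scale of chromosomes the libraries were close. In 2412 windows of 1 Mb whose mean level reached 20 CPM, the median ratio of the organ level to the cell level was 0.980, and its middle range ran from 0.673 to 1.47. The ratio was at least 2 in 265 windows and at most 0.5 in 218. Of whole chromosomes, each as a share of the kept tags, the ratio was highest for chromosome 3 at 1.23 and lowest for chromosome 11 at 0.792. The 3 windows with the highest ratios were at 182 Mb of chromosome 2, with only 30 organ and 42 cell tags, at 103 Mb of chromosome 6, where Chl1 lies, at 4.23, and at 90 Mb of chromosome 7, where the site near Crebzf lies, at 4.08.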

How the data were processed

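CTCF ChIP-exo 5.0 was sequenced with 2 reads of 40 bp, and the authors removed PCR duplicates as pairs of reads identical at both ends. The submitters give mm10 as the build and list BWA 0.7.9a and bcl2fastq 2.16 among their tools. The methods give human and yeast genomes instead. The authors called 21 bp peaks on each strand with GeneTrack and deposited the count of tags per peak, not normalized, without peaks under 2 tags. The file of each library also gives the standard deviation of the tag positions, and 0 was read as 1 position. A site or pair that depends on unlisted tags is therefore missed.

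From the deposited counts, tags were summed in 200 bp windows, over genes with 1 kb on each side and over promoters, and scaled to the tags listed in the library. Sites were peak pairs 10 to 80 bp apart, merged at 100 bp. Compared were sites and genes with a mean level of at least 20 CPM (tags per 1,000,000 listed), called at 2-fold. The background was the same windows moved by 5 kb. Shares carry 95% Wilson intervals and ratios exact binomial ones. The depth expectation drew 12.5% of the cell tags by the binomial distribution, with no random draw.

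Gene positions, promoters and their sequences came from RefSeq for GRCm38.p6, without chromosome 18 in the promoter table. Because no genome sequence was used, motifs were searched in promoters only. Named were the 10 compared sites with the highest mean level, the 10 with the highest and the 10 with the lowest ratio that had spread peaks on both strands in the higher library, the strongest site near each gene of the CTCF list, and from each list the first 2 genes and those at either end by ratio, with further members added after their values were seen. A few items that this rule names are not reported here. The members and all 10 lists were chosen with earlier results of these data known. Alternatives changed distances, filters, scaling, window and level minimum. Pair finding, peak matching, the 2-fold calls at sites and the thinning were tested on simulated data, and the other steps were not. Scripts ran with scipy 1.17.1, pandas 2.3.3 and numpy 2.4.6 under Python 3.11.15, and figures were drawn with matplotlib 3.10.9.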

Additional observations from a re-analysis of the deposited data

Results flagged for a closer look

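The tags left out of the comparison were a larger part of the organ library than of the cells. The 33 dense bins of 10 kb held 16.3% of the organ tags and 5.26% of those of the 2,700,000 cells, and 14.8% of those of the 270,000 cells. Within them, 6 bins on chromosome 9 held 8.18% of the organ tags against 3.08%, and 3 on chromosome 2 held 6.002% against 1.33%. Unplaced sequences held 8.27% against 3.24%, and 8.14% in the 270,000 cells. The mitochondrial genome held 1.02% of the organ tags against 0.910%, and 1.84% in the 270,000 cells. The X chromosome held 1.87% against 1.78%. The Y chromosome held less, 0.328% against 0.858%. Its share was 0.369% in the 270,000 cells, 0.234% in brain, 0.415% in lung and 0.383% in kidney, so the 2,700,000 cells stood highest. These shares were singled out because they lie outside the autosomal peaks compared and hold tags where no sample without antibody sets a level.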

How the results depend on the processing

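No paired analysis was possible because each group had 1 library and no result came from a test. Of 59 alternative values, 16 stayed within the spread set for them and 43 moved, and the cause was not tested unless the setting itself gives it. The share of organ peaks with a cell peak, 5.66%, was 1.75% at 2 bp, 9.75% at 50 bp, 55.6% for peaks of at least 5 tags, 17.4% without peaks of 1 position and 7.00% with dense bins kept. The reverse share, 0.763%, was then 0.229%, 2.80%, 2.80%, 0.716% and 0.954%. Of cell sites, 10.4% held organ tags within 50 bp, 35.8% of the 10,000 strongest, 10.9% without peaks of 1 position, 15.6% with dense bins kept and 23.9% near promoters. The share of organ pairs with cell tags, 76.8%, was 96.3% without peaks of 1 position and 83.8% with dense bins.

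Sites higher in the organ, 71 of 1756, numbered 256 of 1756 at a median ratio of 1, 150 of 10539 at a minimum of 10 CPM, 29 of 82 at 40 and 417 of 2228 with dense bins kept. Those higher in the cells, 1573, numbered 2544 of 2938 scaled to kept tags, 838 at a median ratio of 1, 9536 and 41 at a minimum of 10 and 40, and 400 of 494 in windows of 100 bp. Genes higher in the organ, 709 of 7135, numbered 1480 of 8659 scaled to kept tags, 1575 of 7135 at a median ratio of 1, 7952 of 22062 with no minimum and 2346 of 2747 with only tags over 1 kb from pairs. Those higher in the cells, 3001, numbered 1824, 4991 and 0 under the last 3 of these. The median spacing was 41 bp weighted by tags and 33 bp for pairs of at least 10 tags in the organ, and 42 and 44 bp in the cells. Pairs of both libraries held 1.98% of organ and 1.82% of cell tags, 1.58% and 1.28% for centres within 20 bp, 17.4% and 6.61% with dense bins kept, and 2.74% and 1.98% with peaks of 1 position counted as 1 tag.

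The comparison with thinned cells, which gave 65 and 1640 sites, that near promoters and that far from pairs were chosen after the data were seen. The organ's 527038 tags and the minimum of 2 tags a peak limit what can be seen at weak sites.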

Other observations

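The promoters with most organ tags included some with no match to the core motif, named here after their values were seen. The promoter of Hjurp, a centromere chaperone gene, held 25 organ and 492 cell tags with no match to the core motif. That of the ribosomal protein gene Rpl26 held 14 and 222 with no match, and that of Fbxo7, with 1 match, 15 and 74. The levels at Hjurp, 47.4 and 74.6 CPM, and at Rpl26, 26.6 and 33.7 CPM, differed by less than 2-fold, whereas Fbxo7 stood at 28.5 in the organ and 11.2 in the cells. Of the 134 promoters with at least 5 organ tags, 51.5% [43.1 to 59.8] held the motif and 94.8% had a cell peak. Of the 222 promoters with at least 20 CPM in the cells, 68.9% held the motif and 64.4% had an organ peak.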
